A study of Mus musculus with 3 samples.

Results

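Ccl2, Ccl7, Ccl9, Ccl20 and Csf1 encode secreted factors that recruit or sustain monocytes and related leukocytes. They were chosen as a list of gene symbols, and all 5 were found among the 32287 features of a single droplet matrix of mouse PC cells. Their UMIs (unique molecules counted per gene and cell barcode) were read in 14925 of 18116 barcodes, those that passed minimums of 500 genes and 1000 UMIs and a maximum of 20% for the mitochondrial share. PC cells are esophageal organoid cells from mice with both Trp53 alleles floxed, in which Trp53 was deleted with an adenovirus carrying Cre and EGFP and Cdkn2a was then knocked out with CRISPR/Cas9. They express Cas9 throughout, were grown from dissociated organoids in DMEM with 10% serum, first with and later without the kinase inhibitor Y-27632, and received a library of genetic barcodes by lipofection. After 3 passages, live RFP-positive cells were sorted, about 1000000 of them, and about 20000 were recovered for sequencing. The Notch1-edited PCN organoids of the same study were not analysed here. The labels do not say how many mice or clones the culture came from, and its tissue is given as esophageal cancer. All values below therefore describe 1 culture without replicates, every interval covers counting error only, and no test between conditions was possible.

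CC chemokines are small secreted proteins that bind G-protein-coupled receptors on leukocytes. Ccl2 and Ccl7 act through Ccr2, the receptor that draws inflammatory monocytes out of the bone marrow and into tissue, and Ccl9 acts through Ccr1. Ccl20 is the ligand of Ccr6 and attracts dendritic cell precursors and some lymphocytes more than monocytes, while Csf1 is the growth and survival factor of monocytes and macrophages, read through the receptor tyrosine kinase Csf1r. Epithelial cells and fibroblasts induce several of these genes through NF-kappaB when they receive interleukin-1 or tumour necrosis factor.

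The genes lie on 3 chromosomes of the GRCm38 build, each as a protein-coding gene in GENCODE M21. Ccl2 (ENSMUSG00000035385, chr11:82035571-82037453, plus strand) and Ccl7 (ENSMUSG00000035373, chr11:82045712-82047525, plus strand) are direct neighbours, 8258 bases apart with 0 annotated genes wholly between them. Ccl9 (ENSMUSG00000019122, chr11:83572919-83578636, minus strand) lies 1525393 bases beyond the end of Ccl7. Ccl20 (ENSMUSG00000026166, chr1:83116766-83119167, plus strand) and Csf1 (ENSMUSG00000014599, chr3:107741048-107760469, minus strand) lie elsewhere. RefSeq promoter sequences on GRCm38.p6 were found for 3 of the 5 genes, Ccl20, Csf1 and Ccl9, and none for Ccl2 or Ccl7. The 3 sequences are printed because they were the ones found. They cover Ccl20, which followed the chemokine content of cells most steeply, and Csf1 and Ccl9, which followed it least. Each is the 250 bases before the RefSeq start, 5′ to 3′ in the direction of the gene, in lower case with the match to the NF-kappaB consensus in capitals. The windows are chr1:83116516-83116765 (plus strand) for Ccl20, chr3:107760470-107760719 (minus strand) for Csf1 and chr11:83578637-83578886 (minus strand) for Ccl9.
Ccl20: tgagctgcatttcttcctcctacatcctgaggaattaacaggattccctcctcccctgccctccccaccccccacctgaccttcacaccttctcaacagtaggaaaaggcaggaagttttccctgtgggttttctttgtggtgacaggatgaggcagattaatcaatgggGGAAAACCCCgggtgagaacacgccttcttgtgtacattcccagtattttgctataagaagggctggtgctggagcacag
Csf1: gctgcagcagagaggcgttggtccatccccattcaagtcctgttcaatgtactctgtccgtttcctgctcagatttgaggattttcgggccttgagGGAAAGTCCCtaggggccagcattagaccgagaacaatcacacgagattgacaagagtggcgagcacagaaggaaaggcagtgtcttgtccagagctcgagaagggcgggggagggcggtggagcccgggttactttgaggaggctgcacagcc
Ccl9: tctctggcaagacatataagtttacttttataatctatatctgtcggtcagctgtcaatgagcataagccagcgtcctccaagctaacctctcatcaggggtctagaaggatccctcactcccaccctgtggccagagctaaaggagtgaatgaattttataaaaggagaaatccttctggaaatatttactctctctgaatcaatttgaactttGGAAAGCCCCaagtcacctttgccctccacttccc
Each of the 3 windows held 1 match, on the strand opposite to the gene, at bases 80 to 71 before the start in Ccl20, 154 to 145 in Csf1 and 35 to 26 in Ccl9. Both strands were searched, and 2382 of 32851 RefSeq promoter windows of this length (7.25%) held such a match. The AP-1 pattern TGANTCA, in which N stands for any base, was searched the same way and is present in 6.75% of windows. It was matched in the Ccl9 window by the letters TGAATCA at bases 53 to 47, and in neither of the others. A match describes the letters in the window and is not a measured binding site.

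The kept cells held 45443280 UMIs, with a median of 2955 UMIs and 1499 genes per cell. Cells were gated on UMIs of marker genes. An epithelial-gated cell had at least 2 UMIs of Epcam, Cdh1, Krt5, Krt15, Dsp and Trp63 together and fewer than 2 of Vim, Col1a1, Col3a1, Col5a1, Dcn, Zeb1, Zeb2, Grem1 and Aebp1, and a mesenchymal-gated cell the reverse. The gates gave 12200 epithelial-gated cells (81.7%), 1622 mesenchymal-gated cells (10.9%), 320 cells past both gates (2.14%) and 783 past neither (5.25%). Of the markers kept out of the gates, all 6 epithelial ones were lower in the mesenchymal-gated cells, and 5 of 8 mesenchymal ones were higher there. Among those 5, Col1a2 (4 against 2 UMIs) and Pdgfrb (18 against 0 UMIs) stayed under 10 CPM in both classes. Twist1 was at 1.65 CPM in the mesenchymal-gated and 2.09 CPM in the epithelial-gated cells, with overlapping intervals. Mmp2 had 0 UMIs in the mesenchymal-gated and 23 in the epithelial-gated cells, and Lum was at 0 in both classes. Leukocyte-defining genes were nearly absent: Adgre1, C1qa and Tyrobp had 0 UMIs and Ptprc and Lyz2 had 1 each in all kept cells, and the summed level of a list of 10 such genes ran from 33.4 CPM in the mesenchymal-gated to 56.2 CPM in the epithelial-gated cells, most of it from Cd14 (1997 UMIs) and Cd68 (339 UMIs). Of 6 endothelial markers, Cdh5, Emcn and Cldn5 were at 0 and Pecam1 had 56 UMIs.

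Mesenchymal-gated cells carried far more Ccl2 and Ccl7 per UMI than epithelial-gated cells, and more Ccl20, whereas Ccl9 and, by a smaller margin, Csf1 were higher in the epithelial-gated cells. Levels are given in CPM, the UMIs of a gene per 1000000 UMIs summed over a class of cells. They are not divided by gene length, so each gene is compared between cells and not with the other genes. A gene was called where its levels differed at least 2-fold, the higher level reached 10 CPM and the exact 95% Poisson intervals were separate. By this rule 3 of the 5 were higher in mesenchymal-gated cells, where 11.1% of 9129 genes tested were, and 2 were higher in epithelial-gated cells, where 11.5% were. The median log2 ratio of all genes tested was -0.02.

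Ccl7, the second Ccr2 ligand, differed most in that direction. It stood at 49.6 CPM (47.4 to 51.9) in epithelial-gated and 1226.8 CPM (1197.5 to 1256.6) in mesenchymal-gated cells, a ratio of 24.7 (23.5 to 26.0). The 1622 mesenchymal-gated cells thus held 68.4% of all Ccl7 UMIs, and the 12200 epithelial-gated cells 19.0%. Ccl2 was at 345.2 CPM (339.3 to 351.2) in epithelial-gated and 1539.9 CPM (1507.1 to 1573.2) in mesenchymal-gated cells, 4.46 times higher (4.34 to 4.59). Because epithelial-gated cells were so many, they still held 55.0% of all Ccl2 UMIs against 35.7% in the mesenchymal-gated cells. The balance of the neighbouring pair therefore differed by class: 0.144 Ccl7 UMIs were counted per Ccl2 UMI in epithelial-gated cells (0.137 to 0.151) and 0.797 in mesenchymal-gated cells (0.771 to 0.823). Ccl20, the Ccr6 ligand, had the fewest UMIs of the 5 (1122) and was at 18.6 CPM (17.3 to 20.1) in epithelial-gated and 59.1 CPM (52.8 to 66.0) in mesenchymal-gated cells, 3.17 times higher in the latter (2.77 to 3.63).

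Ccl9, the Ccr1 ligand, had the reverse distribution, with 228.1 CPM (223.3 to 233.0) in epithelial-gated and 8.63 CPM (6.34 to 11.5, from 47 UMIs) in mesenchymal-gated cells. The ratio was 26.4 (19.9 to 36.0), and 96.3% of all Ccl9 UMIs were in epithelial-gated cells. Csf1 was at 62.2 CPM (59.7 to 64.8) in epithelial-gated and 29.7 CPM (25.3 to 34.7) in mesenchymal-gated cells. Its ratio of 2.09 (1.78 to 2.47) lay close to the threshold of 2, and the lower end of the interval was below it.

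**Figure D1:**
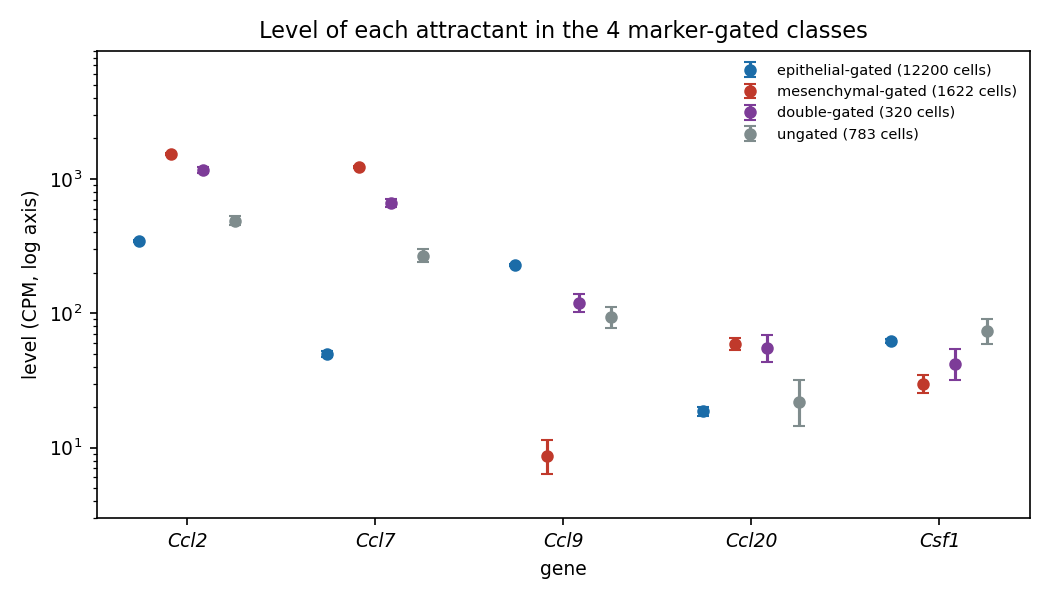
Level of each gene in CPM (log axis) in the 4 marker-gated classes, from UMIs summed over the cells of a class; points are levels and bars exact 95% Poisson intervals. Ccl2 and Ccl7 are highest in mesenchymal-gated cells (1539.9 and 1226.8 CPM), and Ccl9 is highest in epithelial-gated cells (228.1 CPM) and lowest in mesenchymal-gated cells (8.63 CPM).

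The cells past both gates gave intermediate levels of Ccl2 (1159.5 CPM), Ccl7 (659.5 CPM), Ccl9 (119.4 CPM) and Csf1 (42.2 CPM), while their Ccl20 level of 55.3 CPM (43.6 to 69.2) overlapped that of the mesenchymal-gated cells. Their median of 4240 UMIs was above the 2954 and 3276 of the single-gated classes. Doublets were not removed, and their part in these levels was not tested. In the cells past neither gate the medians were 1296 UMIs and a mitochondrial share of 6.54%, and their levels were 489.7 CPM for Ccl2, 268.8 for Ccl7, 93.4 for Ccl9, 21.9 for Ccl20 and 73.9 for Csf1. That Csf1 level (59.5 to 90.7) was the highest of the 4 classes, and its interval covered the epithelial-gated level of 62.2 CPM.

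The share of cells with at least 1 UMI followed the same order. After each cell was thinned at random to 1500 UMIs, which left out 1119 epithelial-gated and 22 mesenchymal-gated cells, Ccl2 was found in 16.2% of epithelial-gated cells (15.6 to 16.9) and 62.8% of mesenchymal-gated cells (60.3 to 65.1). The Ccl7 shares were 4.51% (4.13 to 4.92) and 55.6% (53.1 to 58.0). For Ccl9 they were 23.2% (22.5 to 24.0) and 1.125% (0.668 to 1.77). Most mesenchymal-gated cells thus showed a Ccr2 ligand at this depth, and most epithelial-gated cells did not. Ccl20 was found in 1.65% and 5.0% of epithelial-gated and mesenchymal-gated cells, and Csf1 in 7.96% and 3.19%. Without thinning the shares were 21.4% and 74.7% for Ccl2, 7.06% and 68.2% for Ccl7, 34.7% and 2.65% for Ccl9, 2.80% and 8.45% for Ccl20, and 15.1% and 8.88% for Csf1.

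Droplets also hold free RNA, so the lower of each pair of levels was set beside markers kept out of the gates. The mesenchymal-gated level of Ccl9 was 3.78% of its epithelial-gated level (2.78 to 5.04). For the tight junction genes Cldn4 and Cldn7 the same figure was 2.93% (2.33 to 3.63) and 1.20% (0.390 to 2.81), and thinned shares in mesenchymal-gated cells were 2.0% for Cldn4, found in 46.5% of epithelial-gated cells, and 0.0625% for Cldn7, found in 9.93%. Of the 6 epithelial markers kept out of the gates, the Ccl9 interval overlapped those of 4, Cldn4, Cldn7, Esrp1 (1.995%, 0.861 to 3.94) and Ap1m2 (2.37%, 0.645 to 6.08), and lay below Perp (22.2%, 20.5 to 24.0) and Sfn (24.6%, 23.1 to 26.2). The part of free RNA in the Ccl9 UMIs of mesenchymal-gated cells was not tested. The mesenchymal-gated level of Csf1 was 47.8% of its epithelial-gated level (40.5 to 56.1), above all 6 of these markers. The epithelial-gated level of Ccl7 was 4.05% of its mesenchymal-gated level (3.84 to 4.26), above the 0.360% (0.144 to 0.752) of the collagen VI gene Col6a1 and the 0.940% (0.248 to 2.53) of Col6a2, and below the 9.0% of Sparc, a matrix protein found in 17.3% of thinned epithelial-gated cells. Ccl2 stood at 22.4% (21.8 to 23.0) and Ccl20 at 31.5% (27.6 to 36.1) by the same measure, both above these 3. The other mesenchymal markers kept out of the gates had few UMIs. Col1a2 was at 7.28% (0.659 to 50.8), an interval that covers Ccl2, Ccl7 and Ccl20, and Twist1 at 126% (63.2 to 286), above all 3. Mmp2 had UMIs only in epithelial-gated cells, Pdgfrb only in mesenchymal-gated cells and Lum in neither.

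The matching chemokine receptors were next to undetected in these cells, and so was the Csf1 receptor. Ccr1, Ccr2 and Ccr6, with Ccr3 and the scavenging receptors Ackr1 and Ackr2, had 0 UMIs in the 14925 kept cells, which allows up to 0.0660 CPM and a UMI in up to 0.0201% of cells. Csf1r had 31 UMIs in 31 cells (0.208%), of which 30 were in epithelial-gated and 0 in mesenchymal-gated cells.

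Within the epithelial-gated cells, Ccl2, Ccl7 and Ccl20 were concentrated in cells rich in CXC chemokines, and Ccl9 was not. A CXC gate took cells in which Cxcl1, Cxcl2, Cxcl3, Cxcl5 and Ppbp, ligands of the neutrophil receptor Cxcr2, made up at least 0.5% of UMIs. It held 4368 cells (35.8%), with a median of 3492.5 UMIs against 2680.0 outside it. Of the 5 genes, 3 were called higher in the gate, where 0.771% of genes tested were, and 0 were called lower, where 0.42% were. Ccl20 was at 38.9 CPM (35.9 to 42.2) in the gate and 4.05 CPM (3.25 to 4.98) outside it, 9.62 times higher (7.68 to 12.2), and 87.4% of the epithelial-gated Ccl20 UMIs were in the gate. Ccl2 was at 648.7 CPM (636.1 to 661.4) against 126.9 CPM (122.3 to 131.8), a ratio of 5.11 (4.90 to 5.33), with 78.6% of its UMIs in the gate. Ccl7 was at 79.3 CPM (74.9 to 83.8) against 28.3 CPM (26.1 to 30.7), a ratio of 2.80 (2.54 to 3.09). The smaller ratio of Ccl7 left 0.122 Ccl7 UMIs per Ccl2 UMI in the gate (0.115 to 0.130). Csf1 was at 76.3 CPM in the gate and 52.1 CPM outside, a ratio of 1.46 (1.35 to 1.59) that was not called, and Ccl9 was at 219.7 and 234.2 CPM, a ratio of 0.938 (0.898 to 0.980).

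The levels of Ccl2 and Ccl20 followed the CXC share across its whole range. From cells with 0 CXC UMIs (1433 cells) through shares of up to 0.1%, 0.1 to 0.5%, 0.5 to 1%, 1 to 2% and at least 2% (638 cells), Ccl2 was at 29.5, 57.7, 171.0, 397.0, 733.4 and 1240.3 CPM. Ccl20 was at 1.03 (3 UMIs), 2.08, 5.35, 17.4, 37.9 and 106.0 CPM over the same classes, and Ccl7 at 12.7, 22.2, 33.7, 60.8, 93.3 and 107.1 CPM. Each of these 3 genes was higher in every class than in the class before, although the last step of Ccl7 and the first of Ccl20 lay within overlapping intervals. Csf1 ranged from 42.2 CPM in the first class to 90.6 CPM in the last. Ccl9 was at 164.3 CPM in the first class, between 223.4 and 247.8 CPM in the middle 4 and at 142.1 CPM (128.0 to 157.3) in the last. The median depth of the classes went from 1836 to 4005 UMIs, and a cell with few UMIs can have 0 CXC UMIs by sampling, so depth moved with this order. In cells of 2000 to 5000 UMIs, an alternative added after the data were seen, all 3 calls in the CXC gate were kept.

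**Figure D2:**
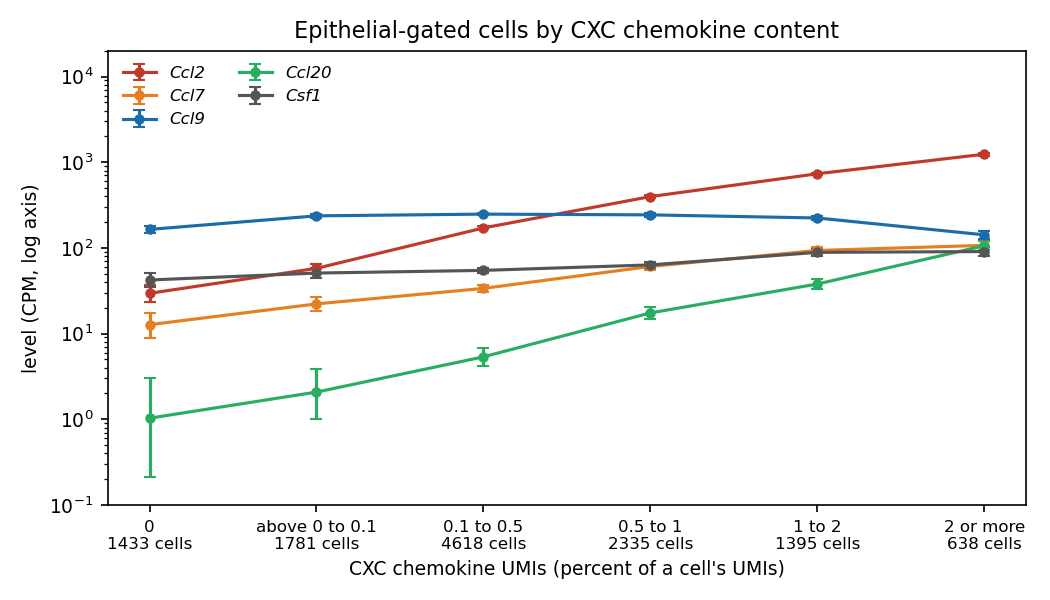
Level of each gene in CPM (log axis) in epithelial-gated cells by the percent of a cell's UMIs that came from Cxcl1, Cxcl2, Cxcl3, Cxcl5 and Ppbp; points are levels, bars exact 95% Poisson intervals, and cell numbers stand under the classes. Ccl2 goes from 29.5 to 1240.3 CPM and Ccl20 from 1.03 to 106.0 CPM, while Ccl9 lies between 142.1 and 247.8 CPM.

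Ccl9 was instead highest in cells rich in Wfdc18, a small secreted protein with a whey acidic protein domain. Cells with at least 1% of their UMIs from Wfdc18 (3091 cells) had 382.5 CPM of Ccl9 (370.0 to 395.3) against 177.1 CPM (172.2 to 182.1) in the other epithelial-gated cells, a ratio of 2.16 (2.07 to 2.26), where 0.188% of genes tested were called higher. Ccl2 (135.4 against 414.6 CPM), Ccl7 (19.9 against 59.5 CPM) and Ccl20 (3.44 against 23.7 CPM) were all called lower there, where 0.893% of genes were. Ccl2, Ccl7 and Ccl20 were thus called in opposite directions in the Wfdc18 gate and the CXC gate. With both gates crossed, Ccl9 was at 470.2 CPM in the 537 cells in both, 361.2 CPM in Wfdc18-rich cells outside the CXC gate, 186.8 CPM in cells in the CXC gate alone and 167.7 CPM in cells in neither. Ccl2 was at 399.8, 71.1, 681.4 and 156.2 CPM in the same 4 sets of cells. The Ccl2 call held in cells outside the CXC gate and missed the threshold inside it (log2 ratio -0.77), and the reverse was true of Ccl20 (log2 ratio -1.35 outside it, with both levels under 10 CPM).

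Cells gated on Ch25h, the cholesterol 25-hydroxylase, and the proliferins Prl2c2 and Prl2c3, which are prolactin-related secreted proteins, were also rich in the Ccr2 ligands. In these 1749 cells Ccl2 was at 797.9 CPM (775.7 to 820.7) against 256.9 CPM (251.3 to 262.5) outside, a ratio of 3.11 (2.997 to 3.22). Ccl7 (87.0 against 42.4 CPM, ratio 2.05) and Ccl20 (33.2 against 15.8 CPM, ratio 2.11) were called too, in a gate where 0.235% of genes were called higher and 0.493% lower. Ccl9 was at 332.1 against 207.8 CPM, a ratio of 1.60 that was not called. This gate overlapped the CXC gate in 984 cells, in which Ccl2 reached 1148.6 CPM. It was at 493.3 CPM in cells of the CXC gate alone, 255.3 CPM in cells of the Ch25h and proliferin gate alone and 111.0 CPM in neither. Taken apart by the CXC gate, the Ccl2 difference kept its call on both sides. The Ccl7 call was lost on both sides (log2 ratios 0.88 inside and 0.27 outside) and in cells of 2000 to 5000 UMIs (0.96), and the Ccl20 call was lost with the gate minimum doubled (0.50) and inside (0.61), and had the other sign outside (-0.52, from 7 UMIs in the gate).

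Ccl20 was called higher in 6 of the 10 state gates that could be compared in epithelial-gated cells, more than any of the other 4. The largest ratio was in cells rich in Ltf and Lcn2, which encode the secreted iron-binding proteins lactoferrin and lipocalin-2. These 248 cells (2.03%) had 192.0 CPM of Ccl20 (162.0 to 225.9) against 15.1 CPM (13.8 to 16.4) outside, a ratio of 12.7 (10.5 to 15.3), and held 20.8% of the epithelial-gated Ccl20 UMIs. In this gate 5.37% of genes were called higher and 5.83% lower. Ccl20 was thus carried by a small secretory set of cells and, at lower levels, by the wider CXC-rich set. Inside the CXC gate Ccl20 was at 221.8 CPM in 199 Ltf- and Lcn2-rich cells and 31.0 CPM in the others, while the 49 such cells outside the CXC gate had 0 Ccl20 UMIs, a number too small to compare. Ccl9 was almost absent from the Ltf- and Lcn2-rich cells, at 7.94 CPM (2.92 to 17.3, from 6 UMIs) against 232.7 CPM, 29.3 times lower (13.4 to 79.8). Ccl7 was at 19.9 CPM (15 UMIs) against 50.25 CPM and called lower, a call lost with the gate minimum doubled, and Ccl2 was at 505.8 against 341.9 CPM, which was not called. The median mitochondrial share was 4.05% in this gate and 2.69% outside it.

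The other gates with a Ccl20 call held interferon-stimulated genes, Ly6d or leukocyte-list genes. Cells with at least 2 UMIs of 8 interferon-stimulated genes (1794 cells, with 0.667% of genes called higher and 0.0234% lower) had 42.2 against 14.0 CPM of Ccl20, a ratio of 3.01 (2.57 to 3.52). Outside the CXC gate the values were 5.99 and 3.71 CPM, with no call, and inside it 80.9 and 29.1 CPM. The 317 cells past the leukocyte-list gate, which rests on Cd14 UMIs and not on Ptprc or Adgre1, had 87.3 against 16.1 CPM, a ratio of 5.41 (4.39 to 6.62) where 1.78% of genes were called higher and 1.35% lower. Ly6d, a membrane-anchored surface protein, marked 853 cells with 37.1 against 17.3 CPM of Ccl20 (ratio 2.14, 2.77% of genes called higher), and this call was lost on both sides of the CXC gate and with the gate minimum doubled. The Ccl20 calls of the interferon and leukocyte-list gates were kept inside the CXC gate and lost outside it (log2 ratios 0.69 and 1.05), where Ccl20 was at 4.05 CPM and a call needs 10 CPM in the higher set.

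Ly6d-rich cells had less Ccl9 than the others. It was at 54.2 CPM (45.4 to 64.2) in them against 240.3 CPM (235.2 to 245.5) outside, 4.44 times lower, where 3.85% of genes were called lower. Ccl2 was at 206.1 against 355.0 CPM and Ccl7 at 82.7 against 47.3 CPM, neither of them called, so that 0.401 Ccl7 UMIs were counted per Ccl2 UMI (0.339 to 0.473). Outside the CXC gate, in 374 Ly6d-rich cells, Ccl7 was at 90.2 against 25.6 CPM and Ccl2 at 58.3 against 129.9 CPM, and both were called. Inside it, in 479 Ly6d-rich cells, Ccl7 was at 78.2 against 79.4 CPM, with no call, and Ccl2 at 292.9 against 687.7 CPM, called lower. Ccl2 was also called lower with the gate minimum doubled (log2 ratio -1.68). Ly6d-rich cells were thus the epithelial-gated set whose balance of these 2 genes lay nearest to the mesenchymal-gated value of 0.797, among the 5 gates for which it was computed.

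In the remaining epithelial-gated states few of the 5 genes were called. The 2001 cells with at least 3 UMIs of 8 G2 and mitosis genes had 26.2 against 55.8 CPM of Ccl7, called lower where 1.09% of genes were and 5.6% called higher, a call lost outside the CXC gate (log2 ratio -0.89), and no call in the other 4 genes. The 119 Malat1-rich cells, with a median of 1185 UMIs and 10.5% mitochondrial UMIs, had 51.9 CPM of Ccl9 (8 UMIs) against 228.9 CPM, in a gate where 16.5% of genes were called lower and 23.7% higher. Their Csf1 level of 123.2 CPM (74.2 to 192.4, from 19 UMIs) against 62.0 CPM missed the threshold at a ratio of 1.99 and passed it under 3 of the alternatives. None of the 5 genes was called in the 1002 cells with Ly6c1 and Pate14 UMIs, a gate with 0.315% of genes called higher and 0.222% lower. The planned gate on Krt7 and the laminin-332 genes held 3 cells at 0.5% of UMIs, and at 0.1%, a minimum added after this was seen, its 2689 cells had no call either (0.557% of genes called higher and 0.278% lower), with Csf1 at 83.0 against 57.2 CPM.

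Csf1 was called in none of the 10 planned epithelial gates. Its levels in them ran from 37.1 CPM in Ly6d-rich to 123.2 CPM in Malat1-rich cells, and in the CXC gate, which held 51.3% of its epithelial-gated UMIs, from 76.3 CPM inside to 52.1 CPM outside. In the 9 gates other than the Malat1 gate Csf1 thus stayed within 37.1 and 82.3 CPM, the latter in the interferon gate. In Ly6d-rich cells it was called lower under 2 of the alternatives.

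**Figure D3:**
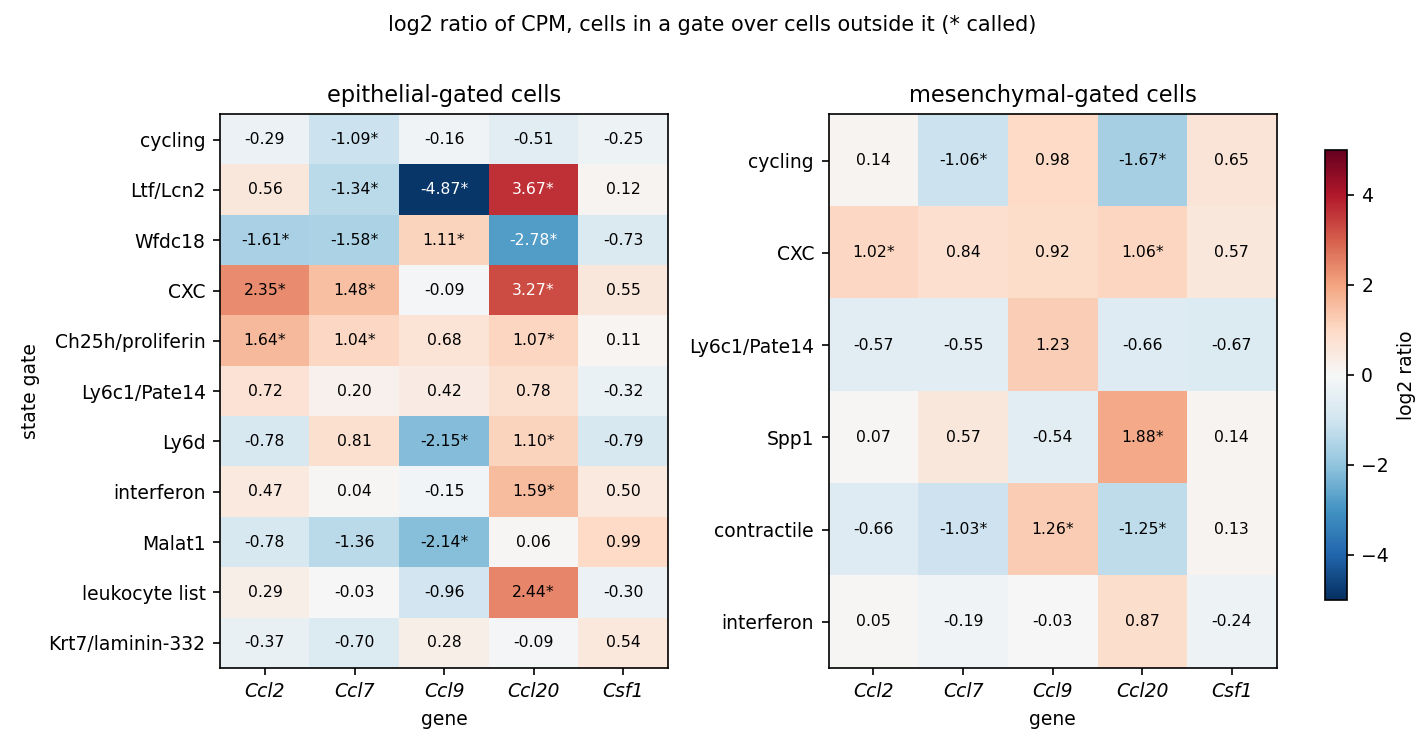
Log2 ratio of CPM in cells of a state gate over the other cells of the same class, for epithelial-gated (left) and mesenchymal-gated cells (right); rows are gates with at least 50 cells on each side, columns are genes, and an asterisk marks a call. Ccl20 has the most called cells of the grid, Csf1 has none, and Ccl9 and Ccl2 have opposite signs in the Wfdc18 row (1.11 and -1.61).

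Within the mesenchymal-gated cells the Ccr2 ligands were present in every state, and Ccl20 varied most. In 208 cells rich in Spp1, the matrix protein osteopontin, Ccl20 was at 165.2 CPM (135.4 to 199.6) against 44.8 CPM (39.0 to 51.2) in the others, a ratio of 3.69 (2.90 to 4.67), where 1.21% of genes were called higher and 0.55% lower. The thinned shares of cells with a Ccl20 UMI overlapped, at 7.92% (4.60 to 12.5) and 4.58% (3.54 to 5.81). The 16 mesenchymal-gated cells with the most Ccl20 held 44.2% of its thinned UMIs, and their part in this ratio was not tested. In the Spp1-rich cells Ccl7 was at 1722 against 1160.01 CPM and Ccl2 at 1609 against 1531 CPM, neither of them called. In the 77 mesenchymal-gated cells past the CXC gate, Ccl2 was at 2980.2 against 1469 CPM (ratio 2.03) and Ccl20 at 117.6 against 56.3 CPM (ratio 2.09), both called where 1.39% of genes were called higher and 0.524% lower, and both lost without the 10% of cells with the most UMIs and in cells of 2000 to 5000 UMIs. Ccl7 was at 2121.5 against 1182.8 CPM there, a ratio of 1.79 (1.64 to 1.96) that was not called. Over all mesenchymal-gated cells Ccl20 and Ccl2 rose with the CXC share: from 0 CXC UMIs to shares of up to 0.1%, 0.1 to 0.5% and at least 0.5%, Ccl20 was at 19.5, 48.6, 89.3 and 117.6 CPM, and Ccl2 at 1095.2, 1296.9, 1926.9 and 2980.2 CPM. Ccl7 was at 1134.2, 1091.5, 1330.9 and 2121.5 CPM over the same classes, with overlapping intervals at its first step. The last step of Ccl20, to 30 UMIs in 77 cells, lay within overlapping intervals (76.0 to 104.3 and 79.4 to 167.9).

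Mesenchymal-gated cells with smooth muscle contractile genes (Acta2, Tagln, Myl9 and Cnn1 at 1% of UMIs or more, 357 cells) had less of 2 of the genes. Ccl7 was at 683.3 CPM (638.8 to 730.0) against 1395 CPM, 2.04 times lower (1.90 to 2.19), and Ccl20 at 28.8 against 68.5 CPM, both called where 2.28% of genes were called lower. The Ccl7 ratio missed the threshold in cells of 2000 to 5000 UMIs (log2 ratio -0.98). Ccl2 was at 1069 against 1685 CPM, which was not called. Ccl9 was called higher at 15.6 CPM (20 UMIs) against 6.49 CPM where 0.349% of genes were, a call lost when GFP, Scar, Malat1 and mitochondrial UMIs were left out of the denominator. The 71 cycling cells of this class had 607.6 against 1264 CPM of Ccl7 and 19.4 (6 UMIs) against 61.5 CPM of Ccl20, both called lower where 1.82% of genes were and 5.72% called higher, so lower Ccl7 in cycling cells was found in both classes. None of the 5 genes was called in the 738 interferon-gated cells (0.501% of genes called higher, 0.151% lower) or the 64 cells with Ly6c1 and Pate14 UMIs (0.852% higher, 0.707% lower), and Csf1 was called in none of the 6 gates.

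Cells with a Ccl2 UMI had a Ccl7 UMI more often than cells without one, in both classes. Among thinned epithelial-gated cells, Ccl7 was found in 17.3% of cells with a Ccl2 UMI (15.6 to 19.2) and 2.03% of those without (1.75 to 2.33). Conversely, 62.4% of Ccl7-positive cells had a Ccl2 UMI against 14.1% of the rest. In mesenchymal-gated cells Ccl7 was found in 68.8% of Ccl2-positive cells (65.9 to 71.7) and 33.2% of the others (29.4 to 37.2). Ccl9 was found in 23.3% (21.4 to 25.4) and 23.2% (22.4 to 24.1) of epithelial-gated cells with and without Ccl2, and in 17.8% of Ccl7-positive cells (14.5 to 21.4) and 23.5% of the rest (22.7 to 24.3). Ccl20 was found in 4.56% of Ccl2-positive and 1.09% of Ccl2-negative epithelial-gated cells, and Csf1 in 12.3% and 7.12%. In mesenchymal-gated cells Csf1 was found in 2.02% of Ccl7-positive cells (1.20 to 3.18) and 4.64% of the others (3.22 to 6.46). These shares rest on 18 and 33 cells of 1 random thinning. The Csf1 share of this class moved beyond its interval with another thinning seed, so no difference is read from them. At this depth 57.7% of epithelial-gated cells had none of the 5 genes, 32.7% had 1 and 7.93% had 2, whereas 22.5% of mesenchymal-gated cells had none, 31.1% had 1 and 42.8% had 2.

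**Figure D4:**
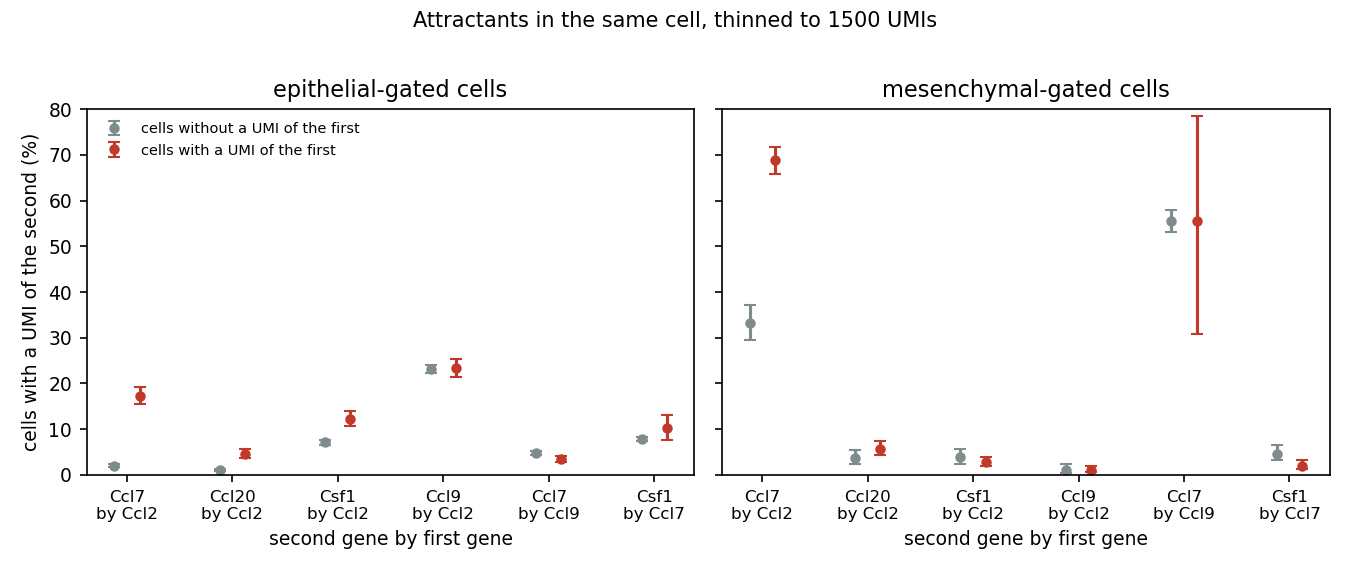
Percent of cells, thinned to 1500 UMIs, with a UMI of a second gene among cells with (red) and without (grey) a UMI of a first gene, in epithelial-gated (left) and mesenchymal-gated cells (right); bars are exact 95% binomial intervals. Ccl7 by Ccl2 shows the widest gap of the 6 pairs plotted in both classes (17.3% against 2.03% and 68.8% against 33.2%), and Ccl9 by Ccl2 shows none in epithelial-gated cells (23.3% against 23.2%).

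The UMIs of all 5 genes were spread more unevenly over epithelial-gated cells than those of most genes of similar mean. In thinned epithelial-gated cells the variance-to-mean ratio of UMIs per cell was 5.79 for Ccl2, 2.12 for Ccl7 and 2.44 for Ccl20, where the medians of genes of similar mean were 1.07, 1.02 and 1.01. Ccl9 (1.58 beside 1.05) and Csf1 (1.20 beside 1.02) were nearer to their medians. The 111 cells (1%) with the most UMIs of a gene held 74.9% of the Ccl20 UMIs, 43.3% of the Ccl7 UMIs, 26.99% of the Ccl2 UMIs, 23.1% of the Csf1 UMIs and 11.9% of the Ccl9 UMIs. These shares also depend on the mean of a gene, since Ccl20 had a UMI in only 183 of the 11081 cells and Ccl9 in 2576, so they do not rank the genes by evenness. Single cells reached 123 Ccl2 UMIs, 56 Ccl7 UMIs and 25 Ccl20 UMIs before thinning. In mesenchymal-gated cells the ratios were 4.90 for Ccl2, 4.56 for Ccl7 and 3.45 for Ccl20, beside 1.26, 1.24 and 1.02.

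Among genes detected in at least 2% of thinned cells, likeness was described by Pearson's r of log-transformed UMIs over cells that share 1 library and a depth of 1500 UMIs. Over 11081 epithelial-gated cells and 7457 genes, the gene most like Ccl2 was Ccl7 (r = 0.37), followed by Cxcl1 (0.32), Cxcl5 (0.31), the NF-kappaB inhibitor gene Nfkbia (0.25) and Cxcl2 (0.24). The genes most like Ccl9 were Wfdc18 (0.24), Tmsb4x (0.20), Actb (0.18), Actg1 (0.16) and Tnc (0.14). Between Ccl2 and Ccl9 r was -0.01, and the 5 genes named for each had none in common. Csf1 had no gene above 0.0901 (Nfkbia), and no likeness is read from a value this low. Ccl7, found in fewer of these cells (4.51% against 7.96% for Csf1), reached 0.37 with Ccl2. The part of sparse counts in the low Csf1 values was not tested. Over 1600 mesenchymal-gated cells and 7395 genes, Ccl2 was again most like Ccl7 (0.52), then Cxcl5 (0.21), Cebpb (0.20), Cxcl1 (0.19) and Slpi (0.16). Ccl7 there was next most like the transcription factor gene Cebpb (0.27), Il13ra2 (0.26), Igfbp7 (0.24) and Fn1 (0.22). Ccl20 in epithelial-gated and Ccl9 in mesenchymal-gated cells were below the 2% minimum, and Ccl20 in mesenchymal-gated cells was most like Rasl11a (0.19).

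Related genes were read from lists of other CC chemokines, other myeloid factors, upstream cytokines, their receptors, NF-kappaB genes and regulators of mRNA decay. Of 15 other CC chemokines, 4 reached 10 CPM in either class. Ccl8, which like Ccl2 and Ccl7 is encoded in the chromosome 11 cluster, was 7.31 times higher in mesenchymal-gated cells (27.4 against 3.74 CPM), Ccl5 was 2.16 times higher in epithelial-gated cells (47.7 against 22.0 CPM), and Ccl25 and Ccl27a were not called. Of 7 myeloid factors tested, the monocyte and progenitor chemokine gene Cxcl12 was 104.0 times higher in mesenchymal-gated cells (194.6 against 1.87 CPM). The stem cell factor gene Kitl was 6.96 times higher in epithelial-gated cells (28.1 against 4.04 CPM), and Csf2, encoding GM-CSF, was 3.21 times higher there (35.4 against 11.0 CPM). Of 8 upstream cytokines tested, a list too short for a rate, 5 were higher in epithelial-gated cells, where 11.5% of all genes were. In mesenchymal-gated cells 1 was higher, where 11.1% of all genes were. The counts were 4 and 0 at a ratio of at least 3. Their median log2 ratio was -1.76 beside -0.02 for all genes. Tnf was at 34.6 CPM in epithelial-gated and 0.367 CPM in mesenchymal-gated cells, the latter from 2 UMIs, a ratio of 94.2 (26.0 to 778.9). The alarmin genes Tslp (80.9 against 8.63 CPM) and Il33 (64.7 against 11.8 CPM) were 9.38 and 5.50 times higher in epithelial-gated cells, and Tgfb1 was 2.29 times higher in mesenchymal-gated cells.

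The genes on the receiving side of the pathway came in lists of 12, 7 and 6 tested genes, and few were called. Like the list of 8 upstream cytokines, these are too short for a rate. Of all genes tested, 11.1% were higher in mesenchymal-gated and 11.5% in epithelial-gated cells. Of 12 NF-kappaB genes tested, 0 were higher in mesenchymal-gated cells and 1 in epithelial-gated cells, and the median log2 ratio was -0.47. The gene called was the adhesion molecule gene Icam1, 4.80 times higher in epithelial-gated cells (40.5 against 8.45 CPM). Of 7 upstream receptor genes tested, Tnfrsf1b, encoding TNF receptor 2, was 3.33 times higher in mesenchymal-gated cells (27.9 against 8.37 CPM) and Tlr3, a sensor of double-stranded RNA, was 2.86 times higher in epithelial-gated cells (27.3 against 9.55 CPM). None of 6 regulators of mRNA decay was called. A count of the same lists in the CXC gate of the epithelial-gated cells was added after the data were seen, and the genes it names were chosen with their values in view. Of 8 cytokines tested, 5 were higher in the gate, where 0.771% of all genes tested were: Il33 (4.98 times), Tslp (4.01), Tnf (2.76), Il1a (2.61) and Lif (2.02). Of 6 myeloid factors, the colony-stimulating factor genes Csf2 (73.3 against 8.14 CPM, 9.002 times) and Csf3 (43.3 against 9.47 CPM, 4.58 times) were higher, unlike Csf1, and of 3 other CC chemokines Ccl5 was (82.3 against 22.7 CPM). None of 12 NF-kappaB genes, 6 upstream receptors or 6 decay regulators was called there, with Nfkbia at 1302 against 772.4 CPM, a ratio of 1.69.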

How the data were processed

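One matrix was used. The deposited values are UMI counts per gene and cell barcode, written by Cell Ranger 8.0.1 per the file headers and not normalized. The build is mm10 per the submitters' processing notes, which also name Scanpy 1.8.2. The labels list 3 libraries of 1 sample each (gene expression, barcode and scar), and the matrix names none of them, so it was treated as 1 pooled sample, and no barcodes could be shared between matrices. The lowest barcode total was 500 UMIs. The filters removed 3191 barcodes (17.6%).

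UMIs were summed over gated cells and scaled to CPM, with exact 95% Poisson intervals. Ratios have exact binomial intervals, and shares of cells exact (Clopper-Pearson) ones, after thinning to 1500 UMIs (13281 cells kept, 1644 left out). Intervals and limits cover counting error only, and the limit for 0 is 3 UMIs. State gates with under 50 cells on either side were not compared. No doublet caller was run. Cells past both gates were kept apart, and an alternative left out the 10% of cells with the most UMIs. Other alternatives changed the cell filter, gate minimum, denominator, thinning and call rule.

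The genes named are the 5, their receptors, up to 3 called genes a list and direction with the largest ratio between classes, and the 5 genes most alike in each class. The members, gates and lists were chosen with earlier results of these data known. The calling step was run on simulated Poisson counts with known changes, which hold no spread between cells beyond counting error. That run cannot show how the calls behave at the spread of these cells, such as the variance-to-mean ratio of 5.79 for Ccl2 in epithelial-gated cells. Python 3.11.15, numpy 2.4.6, scipy 1.17.1, pandas 2.3.3 and matplotlib 3.10.9 were used.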

Additional observations from a re-analysis of the deposited data

Results flagged for a closer look

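The 3191 barcodes that failed the cell filters, which enter no comparison above, held UMIs of all 5 genes above the limit that a count of 0 allows there (1.32 CPM). Their median was 696 UMIs and 12.1% mitochondrial UMIs. Ccl2 was at 147.1 CPM (335 UMIs), Ccl7 at 35.6 CPM (81 UMIs), Ccl9 at 59.3 CPM (135 UMIs) and Ccl20 at 6.59 CPM (15 UMIs), each below its level in all kept cells (516.9, 215.1, 194.9 and 24.7 CPM). Csf1, at 87.4 CPM (75.7 to 100.4, 199 UMIs), was above its 58.1 CPM in kept cells (55.9 to 60.3). The part of their low depth and high mitochondrial share in these levels was not tested.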

How the results depend on the processing

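The ratios between mesenchymal-gated and epithelial-gated cells kept their direction and call in 45 of 45 comparisons with an alternative. The log2 ratios ran from 2.03 to 2.44 for Ccl2, 4.50 to 4.92 for Ccl7, -5.27 to -4.36 for Ccl9, 1.53 to 2.01 for Ccl20 and -1.20 to -1.03 for Csf1. Of 355 comparisons for state gates, 321 gave the same call or lack of one, 20 lost the call, 13 gained it and 1 called value reversed: Ccl20 in the Ch25h and proliferin gate, at a log2 ratio of -0.52 in cells outside the CXC gate. Among the 321, the sign changed in 25, none of them called before or after, with log2 ratios of at most 0.93 in size. Alternatives that left under 50 cells on a side were not run, 11 in all. Of 28 list counts, 11 moved under the stricter ratio or level. Shares of cells moved with depth by construction. Thinned to 1000 UMIs, the epithelial-gated shares were 12.8% for Ccl2, 3.20% for Ccl7, 16.9% for Ccl9, 1.09% for Ccl20 and 5.75% for Csf1, and the mesenchymal-gated shares 54.4% for Ccl2 and 48.3% for Ccl7. Unthinned they were 21.4%, 7.06%, 34.7%, 2.80% and 15.1% in epithelial-gated cells and 74.7%, 68.2%, 2.65%, 8.45% and 8.88% in mesenchymal-gated cells, in the same order of genes. Another thinning seed gave 4.25% for Csf1 in mesenchymal-gated cells, above the interval of the main thinning (3.19%, 2.38 to 4.17). No paired analysis was possible because the matrix holds 1 sample. The depth of 2955 UMIs per cell limits shares of rare genes such as Ccl20, and a cell without a UMI cannot be read as not expressing it. Gates on a few UMIs miss shallow cells, as the 783 cells past neither gate show.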
